A study of Rattus norvegicus with 32 samples.

Results

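The genes described here are 10 transcripts that mark resting, or homeostatic, astrocytes: Aqp4, Aldh1l1, Slc1a2, Slc1a3, Gja1, Gjb6, Glul, S100b, Sox9 and Aldoc. They were taken by name from the gene column of the count data, and all 10 of the 10 names were found among 28914 gene names. RNA-seq was performed on the nucleus accumbens (NAc), dentate gyrus (DG), Cornu Ammonis (CA) and subventricular zone (SVZ) of adult male Sprague-Dawley rats. The rats received 4 intraperitoneal injections of methamphetamine (METH) at 10 mg/kg, spaced 2 h apart, or saline on the same schedule, and tissue was taken the day after. Each region had 4 METH and 4 saline samples (Sal), 32 in all, and the labels name no transgene or mutation. The NAc and SVZ were punched from brain slices and the DG and CA were dissected, so every sample is a mixture of cell types.

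Astrocytes surround synapses and blood vessels and keep the extracellular space of the brain in balance. Aqp4 is the water channel of their endfeet on vessels. Slc1a2 (GLT-1) and Slc1a3 (GLAST) are the transporters that clear glutamate from the synapse, and Glul (glutamine synthetase) turns it into glutamine that neurons take back. Gja1 (connexin 43) and Gjb6 (connexin 30) form the gap junctions that join astrocytes into a network. Aldh1l1 is an enzyme of folate metabolism, Aldoc is the brain form of the glycolytic enzyme aldolase, S100b is a calcium-binding protein, and Sox9 is a transcription factor of the astrocyte lineage. Some are not exclusive to astrocytes: S100b and Glul are also made by oligodendrocytes, and Sox9 by ependymal and neural stem cells. When astrocytes become reactive they raise Gfap, an intermediate filament, which was used here as a point of comparison.

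The paralogous glutamate transporters are compared with each other within every library in the results, so the sequences around their gene starts are shown (300 bases each, RefSeq, rat build GRCr8). Capitals mark the only match in these 2 regions to the 3 motifs searched on both strands, an NFI half-site (TTGGCA, which reads TGCCAA on the other strand). The Slc1a2 region lies at chr3:109459859-109460158 on the plus strand and the Slc1a3 region at chr2:59557759-59558058 on the minus strand.
Slc1a2: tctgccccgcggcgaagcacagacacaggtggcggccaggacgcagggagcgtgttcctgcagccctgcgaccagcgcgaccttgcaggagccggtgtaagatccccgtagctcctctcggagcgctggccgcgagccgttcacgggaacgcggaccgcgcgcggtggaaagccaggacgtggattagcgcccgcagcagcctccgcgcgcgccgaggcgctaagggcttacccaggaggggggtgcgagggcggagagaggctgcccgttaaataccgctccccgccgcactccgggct
Slc1a3: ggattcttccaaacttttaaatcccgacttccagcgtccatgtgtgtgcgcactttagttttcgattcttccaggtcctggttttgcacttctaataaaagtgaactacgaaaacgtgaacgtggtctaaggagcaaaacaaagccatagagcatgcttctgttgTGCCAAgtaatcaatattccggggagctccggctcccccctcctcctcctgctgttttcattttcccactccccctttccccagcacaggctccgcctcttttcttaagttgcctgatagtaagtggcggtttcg
For each gene the first promoter listed was used. The paralogs differed in composition, with 71.0% G and C and 39 CpG dinucleotides in the Slc1a2 region and 48.3% and 12 in the Slc1a3 region. The other promoters listed were 1 for Slc1a2, with 46.3% and 2 CpG, and 2 for Slc1a3 that overlap the one shown. The median over the first promoters of 27457 genes was 52.3% with 7 CpG. A SOX motif (AACAAT) stood in 0 of the 9 first promoters of members and in 11.6% of all promoters. The NFI half-site stood in 2 of 9 (Slc1a3 and S100b) and in 13.6% of all, and a TATA box (TATAAA) in 0 of 9 and 14.3%. Over all 15 promoters listed for these 9 genes the NFI half-site stood in 6 (3 of Slc1a3, 1 each of Gjb6, Glul and S100b) and the other 2 motifs in 0. The 3 of Slc1a3 overlap, and the shares over all genes given above are for first promoters only. A match is a run of letters only, and no entry was found for Sox9.

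In the rat build rn6 used for counting, the gene models of the members are spread over the genome. On the plus strand are Slc1a2 (chr3:92640752-92665644), Gja1 (chr20:37876650-37889089), Glul (chr13:71331052-71340229), Sox9 (chr10:101288489-101293379) and Aldoc (chr10:65586504-65590126). On the minus strand are Aqp4 (chr18:6765945-6782996), Aldh1l1 (chr4:123516788-123557501), Slc1a3 (chr2:57860834-57935363), Gjb6 (chr15:37400889-37410848) and S100b (chr20:13130636-13142856). Reads were counted over exons, and none of the 10 models overlaps another gene model.

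The libraries held 11094002 to 21869773 reads on genes. The lowest read count of a member in a library ranged from 182 reads for Aldh1l1 to 11224 for Glul. Labelled tissues were compared with marker genes. The summed level of 6 markers of striatal medium spiny neurons was 1137 to 6298 CPM (read counts scaled to a common library size by the upper quartile) in 7 NAc libraries and 109 CPM in NAc METH 3. In the SVZ it was 1169 to 4347 CPM in 5 libraries and 200, 138 and 492 CPM in Sal 1, METH 2 and METH 4. DG Sal 3 held 1359 CPM of the same markers, above the other 7 DG libraries (70.7 to 280.3 CPM). Summed markers of dentate granule neurons (4 genes) did not set the DG apart from the CA: they were 28.2 to 201 CPM in saline and 73.2 to 415 CPM in METH samples of the DG, and 46.1 to 398 CPM and 67.5 to 199 CPM in those of the CA. None of the 6 striatal markers was at 0 throughout a group. Library numbers in the file headers add a limit: 4 SVZ METH libraries carry 2 numbers, and the numbers of DG replicates 1 and 2 are attached to the opposite treatment elsewhere. With SVZ libraries of 1 number summed, and with DG replicates 3 and 4 alone, 0 members passed the threshold. With all samples 0.0% of all genes passed by edgeR in both regions, so this count says little about the numbers. The METH fold change kept its direction for 8 of 10 members in the summed SVZ fit and 5 of 10 in the DG fit.

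All 10 members were expressed in every library. Per kilobase of exon in the deposited gene models, the mean level was highest for Slc1a2 (866 CPM per kb), S100b (481), Glul (426) and Aldoc (383). Intermediate levels were seen for Slc1a3 (177 CPM per kb), Gja1 (153) and Aqp4 (107), and low levels for Sox9 (23.2), Gjb6 (16.4) and Aldh1l1 (7.25). The Slc1a2 model holds only 882 bases of exon, so its level per kb is uncertain. Between the lowest and the highest of the 32 libraries the members differed by 1.69-fold (Glul) to 3.22-fold (Aldh1l1).

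**Figure D1:**
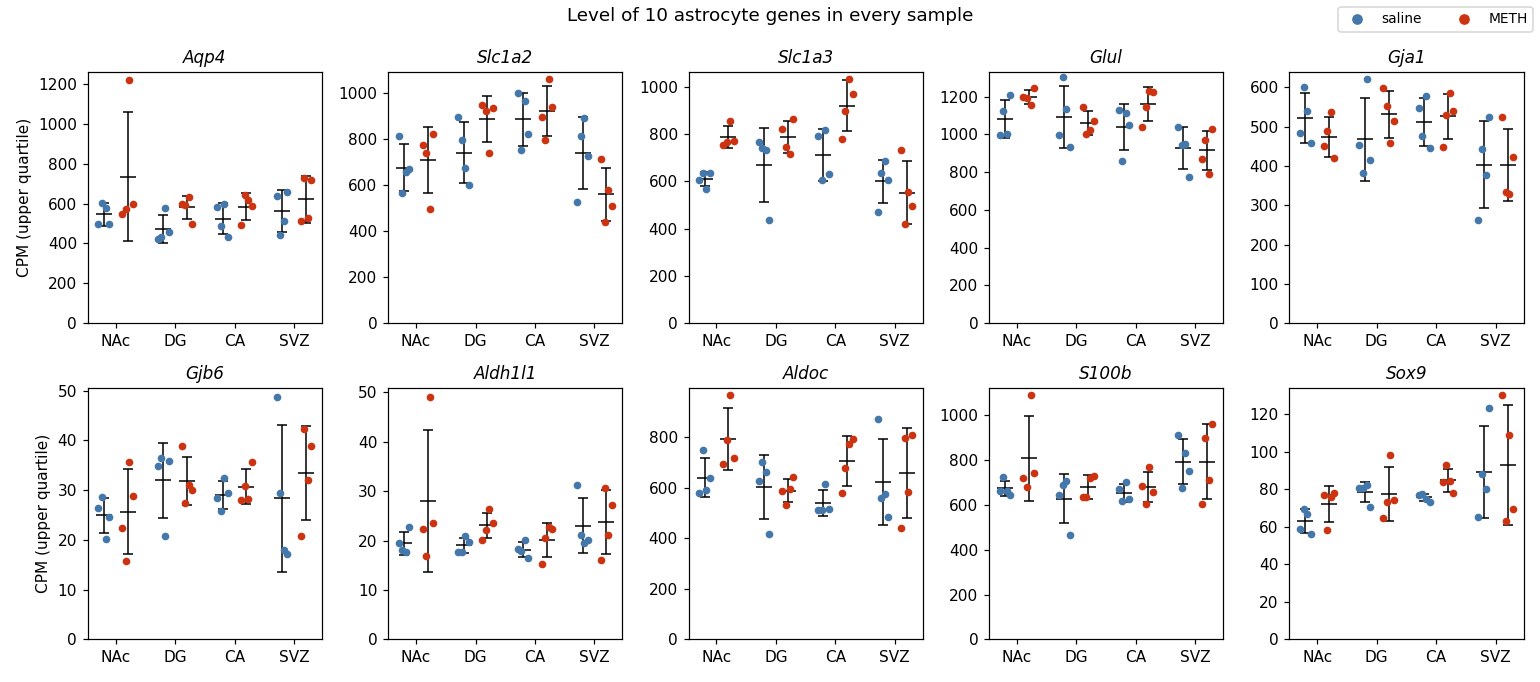
Level of each member in CPM (y axis, from 0) in the 4 regions (x axis), with 1 point per library, blue for saline and red for METH, and black bars for the mean and SD of 4. The treatments overlap in nearly all panels. The NAc Slc1a3 and CA Sox9 values separate, and NAc METH 3 stands high for Aqp4 (1220 CPM) and Aldh1l1 (49.0 CPM).

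Saline samples were first compared between regions, which gives the baseline of these genes. The study's methods describe dissecting the regions from the same brains, and library numbers recur among NAc, DG and CA samples, so samples of different regions may share a rat; the labels do not say which. The fits across regions treat them as independent. Library names in the file headers hold a shared part that groups the libraries. It is called run here, and the headers do not say what it stands for. The SVZ had a run of its own, so that run and region cannot be told apart in its contrasts. In the 6 pairwise contrasts, 0 of 10 members passed an FDR under 0.01 with a fold above 2 by edgeR's quasi-likelihood test or by DESeq2, which called 0 to 781 genes in all. Over all 15515 genes the share passing was 0.0% between the NAc and each other region and between the DG and CA, 0.0193% for DG against SVZ and 0.812% for CA against SVZ. Fold changes of the members ran from -0.50 to 0.37 on the log2 scale over all contrasts. At an unadjusted p under 0.05, 1 member differed in NAc against CA (24.1% of all genes), in NAc against SVZ (12.6%), in DG against SVZ (17.6%) and in CA against SVZ (31.6%), and 0 in NAc against DG (11.5%) and DG against CA (8.93%). These are shares at or below the background.

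Those 4 differences were as follows. Slc1a2 averaged 675 ± 102 CPM (SD, n = 4) in NAc and 884 ± 117 in CA saline samples (log2 fold change -0.39, SE 0.18, unadjusted p = 0.0446, FDR 0.195 by edgeR). Sox9 averaged 63.0 ± 6.29 CPM in the NAc and 89.3 ± 24.6 in the SVZ (log2 fold change -0.50, SE 0.15, FDR 0.191 by edgeR). The SVZ is a germinal niche, and Sox9 also marks its stem cells and the ependyma; 5 ependymal markers summed to 9.77 to 91.4 CPM in SVZ and 3.30 to 24.0 CPM in NAc saline samples, and their part in the difference was not tested. S100b was lower in the DG (627 ± 110.1 CPM) than in the SVZ (793 ± 101 CPM; FDR 0.212 by edgeR), and Aldh1l1 lower in the CA (18.1 ± 1.47 CPM) than in the SVZ (23.0 ± 5.59 CPM; FDR 0.126 by edgeR). The 2 groups overlapped in each of the 4. For Sox9, every NAc saline sample lay below every DG and every CA saline sample, at unadjusted p = 0.0509 and 0.0944 by edgeR. The share of all genes separated in this way is not given here. An unadjusted p under 0.05 was reached by 11.5% and 24.1% of all genes in these contrasts.

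With all 32 samples in the fit, region contrasts averaged over treatment had smaller errors, and some members reached an FDR under 0.05 by edgeR, each with a fold under 2. They were 4 in CA against SVZ (43.1% of all genes), 4 in DG against SVZ (27.9%), 2 in NAc against SVZ (17.4%), 1 in NAc against CA (26.1%) and 0 in NAc against DG (14.9%) and DG against CA (0.0%). In CA against SVZ samples both transporters were higher in the CA, Slc1a3 by 0.49 (SE 0.11, FDR 0.00137) and Slc1a2 by 0.49 (SE 0.12, FDR 0.00283) on the log2 scale, followed by Glul (0.25) and Gja1 (0.37). Slc1a3 (0.34), Slc1a2 (0.33) and Glul (0.22) were also higher, and S100b lower (-0.28), in DG against SVZ samples. In NAc samples Glul was higher (0.31) and Sox9 lower (-0.43) than in SVZ samples, and Slc1a2 lower (-0.39) than in CA samples. In METH samples alone the CA and SVZ differed by 0.73 (SE 0.15, FDR 0.00456) for Slc1a3 and 0.71 for Slc1a2, against 0.25 and 0.26 in saline samples.

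Baseline order differed from gene to gene. Glutamine synthetase was near level, with 1091 ± 166 CPM in the DG, 1082 ± 102 in NAc, 1038 ± 123 in CA and 927 ± 112 in SVZ samples. Slc1a3 was highest in the CA (712 ± 109 CPM), followed by the DG (669.6 ± 156), NAc (610.1 ± 31.3) and SVZ (599 ± 92.4). In both orders no pair of regions reached an unadjusted p under 0.05 by edgeR. Gja1 was lowest in the SVZ (402 ± 111 CPM) and highest in the NAc (521 ± 63.2), with the DG at 467 ± 107 and the CA at 512 ± 61.3, whereas its partner Gjb6 was lowest in the NAc (24.9 ± 3.54) and highest in the DG (32 ± 7.51). Aqp4 ran from 472 ± 71.8 CPM in the DG to 563 ± 103 in the SVZ, and Aldoc from 539.8 ± 51.4 (CA) to 640.2 ± 76.7 (NAc). The spread of SVZ samples was wide for Gjb6 (28.3 ± 14.7 CPM) and Sox9.

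METH was then compared with saline in each region. No member passed an FDR under 0.01 with a fold above 1.5 in any region, by edgeR or DESeq2, and 0.0% of all genes passed by edgeR. DESeq2 called 3, 175, 10 and 2 genes in NAc, DG, CA and SVZ samples, 0 of them members. The lowest FDR among members by edgeR was 0.385 in the DG and 0.999 in the NAc. With edgeR, 1 member had an unadjusted p under 0.05 in NAc samples (3.39% of all genes), 1 in DG (12.8%), 3 in CA (7.16%) and 0 in SVZ samples (2.58%), while DESeq2 gave 2, 2, 2 and 0. Every METH sample lay above every saline sample for 1 member in NAc (1.35% of all genes), 0 in DG (3.91%), 1 in CA (2.57%) and 0 in SVZ samples (0.847%). More members had a higher than a lower mean: 9 of 10 in NAc, 6 in DG, 10 in CA and 7 in SVZ samples. Their median log2 fold change was, in this order, 0.24, 0.15, 0.15 and 0.031, beside 0.029, -0.011, 0.0051 and 0.016 over all genes tested. Markers of other cell types also differed in mean between the treatments. In the CA all 6 oligodendrocyte markers had a lower mean with METH (median log2 fold change -0.27; summed level 2344 to 8248 CPM with METH and 3061 to 6658 CPM with saline), as had 5 of 6 neuronal markers (summed 2790 to 3758 CPM and 3536 to 4100 CPM). All 3 endothelial markers tested, of 5 listed, had a higher mean (median 0.39; summed 86.3 to 115 CPM and 74.3 to 101 CPM). The 3 granule neuron markers tested had a lower mean with METH in the CA (median -0.90) and a higher mean in the DG (median 1.59). In the DG all 6 striatal markers had a lower mean with METH (median -2.30). Their sums were 140, 246, 1359 and 178 CPM with saline and 70.7, 114, 280 and 87.0 CPM with METH. The saline mean thus rested largely on Sal 3. No marker of these lists passed the threshold by edgeR. An unadjusted p under 0.05 was reached by 2 endothelial, 1 neuronal and 1 granule neuron marker in the CA and by 1 granule neuron marker in the DG. The 5 CA pyramidal neuron markers summed to 409 to 1000 CPM with saline and 985 to 2031 CPM with METH in the DG. In the CA they summed to 1156 to 1838 CPM and 985 to 1073 CPM. Of these 5 only Nptx1 was separated, higher with METH in the DG (log2 fold change 1.26, SE 0.49) and lower in the CA (-0.75, SE 0.24). Its unadjusted p by edgeR was 0.0306 and 0.0116. The part of all these markers in the members' values was not tested. The p-values measure the spread between samples labelled as replicates. In tissue pieces, more astrocytes and more RNA per astrocyte cannot be told apart.

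Of the glutamate handling genes, Slc1a3 showed the clearest separation. In the NAc its level was 606, 633, 567 and 634 CPM in saline samples and 753, 768, 854 and 771 CPM in METH samples. The lowest METH sample lay above the highest saline sample, and the means differed by 1.30-fold (log2 fold change 0.38, SE 0.096, unadjusted p = 0.00348, FDR 0.999 by edgeR; FDR 0.0101 by DESeq2). The runs were spread unevenly over the treatments except in the SVZ, which had 1 run. CA Sal 1 and 2 carry the name merged, which was fitted as a run. In the NAc only 1 run held both treatments, with METH 1 and 2 and Sal 3 and 4. NAc values with run as a covariate thus rest on these libraries and leave METH 3 out. In the DG, too, only 1 run held both treatments, with METH 1 and 2 and Sal 3. DG values with run as a covariate thus rest on Sal 3, which held 1359 CPM of striatal neuron markers. With run as a covariate the log2 fold change of Slc1a3 was 0.35 (SE 0.15) in NAc, 0.090 in DG and 0.35 (SE 0.13) in CA samples. In the CA the values were 792, 607, 818 and 630.2 CPM with saline and 780.3, 897, 1032 and 971 CPM with METH. The 2 groups overlapped, since CA METH 1 fell within the saline range (log2 fold change 0.37, SE 0.13, unadjusted p = 0.0203, FDR 0.669 by edgeR). The DG and SVZ estimates were 0.24 (SE 0.18) and -0.12 (SE 0.20), and DG Sal 4 was far below the other DG saline samples at 436 CPM.

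For Slc1a2 the groups overlapped in all 4 regions. It was lower on average with METH in the SVZ, at 711, 439, 576 and 509.7 CPM against 527, 812, 890.1 and 726 CPM with saline (log2 fold change -0.40, SE 0.21, unadjusted p = 0.0953, FDR 0.979 by edgeR). In the DG it was 886 ± 98.4 CPM with METH and 739.8 ± 132 with saline, and in the NAc and CA the log2 fold changes were 0.081 (SE 0.18) and 0.059 (SE 0.12). For Glul the log2 fold change was 0.16 (SE 0.11) in NAc and 0.16 (SE 0.11) in CA tissue, and nearer to 0 in the DG (-0.041, SE 0.14) and SVZ (-0.013, SE 0.14).

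The balance of the transporters within a library does not depend on scaling. The log2 ratio of Slc1a2 to Slc1a3 reads in the CA was 0.34, 0.31, 0.23 and 0.38 in saline samples and 0.20, -0.17, 0.037 and -0.054 in METH samples. Every METH library was below every saline library, by 0.31 on average (two-sided exact permutation p = 0.0286, the smallest that 4 against 4 allows, and 0.171 after Benjamini-Hochberg adjustment over the 30 ratio tests made). In the SVZ too every METH library was below every saline library, with 0.16, 0.36, 0.37 and 0.27 for saline and -0.043, 0.060, 0.052 and 0.045 for METH (exact p = 0.0286, adjusted 0.171). In the NAc the mean ratio was 0.13 ± 0.25 (SD, n = 4) with saline and -0.18 ± 0.41 with METH, where METH 3 stood lowest at -0.78, and the groups overlapped (exact p = 0.257). In the DG the means were 0.16 ± 0.24 and 0.17 ± 0.11 (exact p = 0.971). The SVZ test counted its 4 METH libraries as independent, although they carry only 2 library numbers. The difference between regions was not tested for the ratio.

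**Figure D2:**
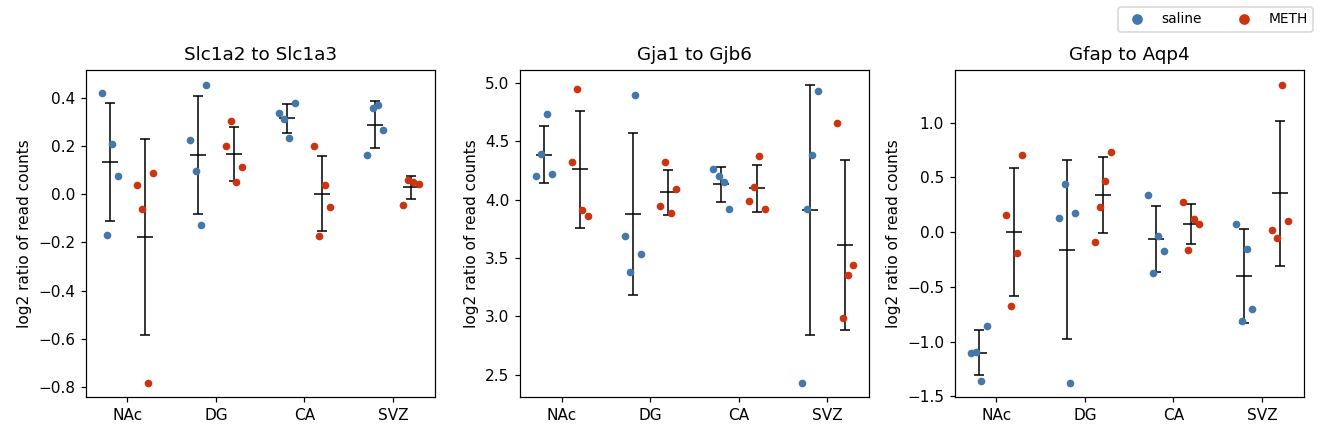
Log2 ratio of read counts within each library (y axis) for 3 gene pairs in the 4 regions (x axis), with 1 point per library, blue for saline and red for METH, and black bars for the mean and SD of 4. The CA and SVZ ratios of Slc1a2 to Slc1a3 and the NAc ratio of Gfap to Aqp4 do not overlap between treatments.

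The gap junction genes gave no separation. Gja1 in the NAc was 474 ± 50.4 CPM with METH and 521 ± 63.2 with saline, the only member with a lower mean there (log2 fold change -0.12, SE 0.12), and the DG, CA and SVZ gave log2 fold changes of 0.18, 0.038 and 0.0034. The log2 fold changes of Gjb6 were 0.061 (SE 0.23), -0.0064 (SE 0.19), 0.075 (SE 0.11) and 0.24 (SE 0.37) in the NAc, DG, CA and SVZ. The log2 ratio of Gja1 to Gjb6 was 4.39 ± 0.25 (SD, n = 4) and 4.26 ± 0.50 in NAc saline and METH samples, and the exact permutation p was 0.629 to 0.8 over the 4 regions. Among 10 other connexins and pannexins, 9 were tested and 0 passed the threshold by edgeR or DESeq2. By edgeR 1 NAc value (3.39% of all genes) and 1 CA value (7.16%), both higher, had an unadjusted p under 0.05.

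The water channel Aqp4 was 498, 606, 580.3 and 498 CPM in NAc saline samples and 546, 573, 1220.3 and 599.5 CPM in NAc METH samples (log2 fold change 0.44, SE 0.26, FDR 0.999 by edgeR). A single library, METH 3, stood apart, and without it the log2 fold change was 0.082. With run as a covariate, which set METH 1 and 2 against Sal 3 and 4, it was 0.062, again without METH 3. The same library lacked most of the striatal neuron signal, and its summed oligodendrocyte markers (6 genes) were 12766 CPM against 4089 to 11731 CPM in the other NAc libraries; the part of tissue content in this value was not tested. In the DG, Aqp4 was 422, 432, 577 and 457 CPM with saline and 597, 595, 633 and 498 CPM with METH. Only DG Sal 3 reached the METH range (log2 fold change 0.30, SE 0.14, unadjusted p = 0.0615, FDR 0.421 by edgeR). With run as a covariate, which set METH 1 and 2 against Sal 3 alone, the value was 0.039. In the CA and SVZ the log2 fold changes were 0.15 (SE 0.13) and 0.15 (SE 0.19). Of 11 endfoot and water channel partners, 9 or 10 were tested in a region and 0 passed the threshold by edgeR or DESeq2. By edgeR 1 in the DG, higher with METH, had an unadjusted p under 0.05 (12.8% of all genes). The water and glycerol channel Aqp9 was separated in the SVZ, at 3.95 CPM with METH and 3.21 CPM with saline.

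Of the metabolic enzymes, Aldoc was 513, 513, 617 and 516 CPM in CA saline samples and 579, 678, 774 and 793 CPM in CA METH samples. The METH mean was 1.31-fold higher, and METH 1 alone fell below the highest saline sample (log2 fold change 0.38, SE 0.12, unadjusted p = 0.00960, FDR 0.669 by edgeR). With run as a covariate the CA value was 0.31 (SE 0.092). In the NAc, Aldoc was 580.4, 749, 593 and 639 CPM with saline and 694, 792, 968 and 719.9 CPM with METH (log2 fold change 0.32, SE 0.14, unadjusted p = 0.0503 by edgeR), and NAc METH 3 was again the highest; without it the value was 0.21. The DG and SVZ estimates were -0.030 (SE 0.17) and 0.085 (SE 0.26). Aldh1l1 in the DG was 17.7, 17.7, 20.8 and 19.7 CPM with saline and 20.2, 22.0, 26.3 and 23.6 CPM with METH, where 1 METH sample lay below the highest saline sample (log2 fold change 0.28, SE 0.12, unadjusted p = 0.0463, FDR 0.385 by edgeR). With run as a covariate, which again set METH 1 and 2 against Sal 3 alone, this DG value was 0.011. In the NAc the estimate of 0.54 (SE 0.31) rested on METH 3 at 49.0 CPM and was 0.12 without that library. It was -0.034 with run as a covariate, which set METH 1 and 2 against Sal 3 and 4.

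S100b was 663, 724, 664 and 646 CPM in NAc saline and 719, 681, 1090.2 and 742 CPM in NAc METH samples. METH 3 was the highest of the 8 and the groups overlapped (log2 fold change 0.28, SE 0.16, FDR 0.999 by edgeR). Without METH 3 the log2 fold change of S100b was 0.095. With run as a covariate, which set METH 1 and 2 against Sal 3 and 4, it was 0.10. In the DG, CA and SVZ its log2 fold changes were 0.12, 0.054 and 0.0061. Sox9 in the CA was 76.8, 77.8, 75.0 and 73.5 CPM with saline and 83.8, 93.1, 84.4 and 78.0 CPM with METH. The lowest METH sample lay just above the highest saline sample, and the means differed by 1.12-fold (log2 fold change 0.16, SE 0.071, unadjusted p = 0.0497, FDR 0.697 by edgeR). With run as a covariate it was 0.19 (SE 0.089). In the NAc, DG and SVZ its log2 fold changes were 0.21, -0.015 and 0.065, with overlap in each.

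**Figure D3:**
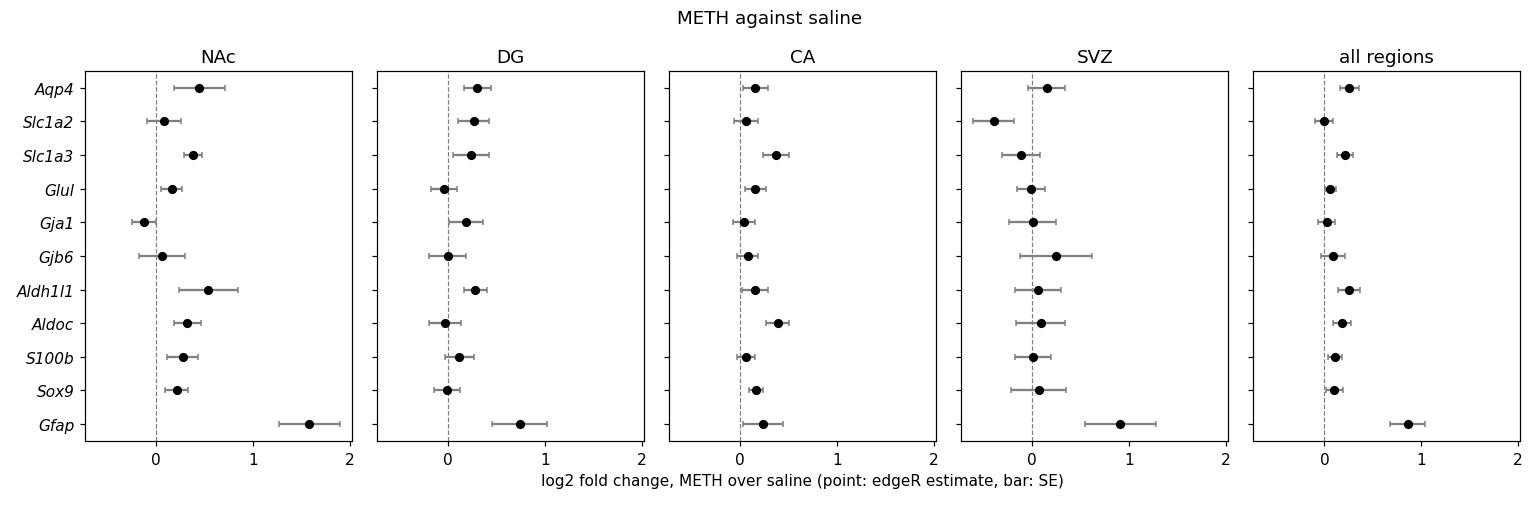
Log2 fold change of METH over saline (x axis, with its SE as a bar, edgeR) for the 10 members and Gfap (y axis) in each region and over all regions with region as a covariate. Gfap reaches 1.58 in the NAc, while the members lie between -0.40 and 0.54.

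With region as a covariate over all 32 samples, 0 members passed the threshold by edgeR or DESeq2 (0.0% of all genes by edgeR), and 3 had an unadjusted p under 0.05 by both tools (7.45% of all genes by edgeR). They were Aqp4 (log2 fold change 0.26, SE 0.096, FDR 0.585), Slc1a3 (log2 fold change 0.21, SE 0.085, FDR 0.590) and Aldh1l1 (log2 fold change 0.25, SE 0.11, FDR 0.632), all higher with METH. Without NAc METH 3, the estimates of Aqp4 and Aldh1l1 were 0.17 and 0.15. Aldoc gave 0.19 (SE 0.094), S100b 0.11 (SE 0.073) and Sox9 0.10 (SE 0.087), while Slc1a2 and Gja1 were near 0, at -0.0034 and 0.022. With library number as a random effect (limma, consensus correlation 0.025), 0 members passed, and Aqp4 (0.24, unadjusted p = 0.0143) and Slc1a3 (0.22, p = 0.0187) but not Aldh1l1 (0.21, p = 0.0741) stayed under 0.05. Whether the METH effect differed between regions was tested as an interaction. It passed an FDR under 0.01 for 0 members (0.0% of all genes), and at an unadjusted p under 0.05 also for 0 by edgeR and by DESeq2 (7.74% of all genes by edgeR). Slc1a2 had the lowest interaction p (0.0750, FDR 0.715 by edgeR).

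The log2 fold change of the reactive marker Gfap was larger than that of any member in the NAc, DG (0.74, SE 0.29) and SVZ (0.91, SE 0.37), but not in the CA (0.24, SE 0.21). Over all regions it was 0.86 (SE 0.18, FDR 0.223 by edgeR). In the NAc it was 232, 284, 226 and 275 CPM in saline samples and 607, 359.5, 1069 and 979 CPM in METH samples. Every METH sample exceeded every saline sample, with a mean 2.99-fold higher (log2 fold change 1.58, SE 0.32, unadjusted p = 0.000835, FDR 0.999 by edgeR). The highest values, in METH 3 and 4, came from a run that held no NAc saline library. In the only NAc run with both treatments, Gfap was 607 and 359.5 CPM with METH and 226 and 275 CPM with saline. The log2 ratio of Gfap to Aqp4 was -1.11, -1.09, -1.36 and -0.86 in NAc saline and 0.15, -0.67, -0.19 and 0.71 in NAc METH libraries, again without overlap (exact permutation p = 0.0286, adjusted 0.171). The ratio was higher with METH by 0.50 in the DG, 0.13 in the CA and 0.76 in the SVZ, where the groups overlapped (exact p = 0.314, 0.457 and 0.0857). Among saline samples the mean ratio was -1.10 ± 0.20 (SD, n = 4) in NAc, -0.16 ± 0.82 in DG, -0.060 ± 0.30 in CA and -0.40 ± 0.43 in SVZ samples. The NAc lay below the CA and the SVZ in every sample (exact p = 0.0286 each, adjusted 0.171) but overlapped with the DG (exact p = 0.143), where Sal 3 held the lowest single ratio, at -1.37. Of 24 reactive astrocyte genes, 17 were tested in NAc, 18 in DG, 17 in CA and 19 in SVZ samples. None passed the threshold by edgeR, while DESeq2 called 1, Gfap in the NAc. By edgeR 5, 2, 3 and 2 had an unadjusted p under 0.05, all higher with METH. The share over all genes was 3.39%, 12.8%, 7.16% and 2.58%. The median log2 fold changes of the tested reactive genes were 0.41, 0.12, 0.24 and 0.24. Beyond Gfap, those with separated groups were Sphk1 (sphingosine kinase) in the NAc, at 1.61 against 0.48 CPM, Hspb1 (a small heat shock protein) in the CA, at 5.80 against 3.34 CPM, and S100a10 in the SVZ, at 9.76 against 4.45 CPM.

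A wider set of 36 homeostatic astrocyte genes was examined beside the members, of which 33 were tested. None passed the threshold in any region by edgeR, while DESeq2 called 2, Cbs and Id4 in the CA. By edgeR an unadjusted p under 0.05 was seen for 5 higher genes in NAc, 5 higher and 1 lower in DG, 7 higher in CA and 0 in SVZ samples. The share over all genes was 3.39%, 12.8%, 7.16% and 2.58% in this order. The medians of the list were 0.17, 0.0034, 0.15 and 0.094 on the log2 scale. Gpr37l1, an orphan receptor of astrocytes, averaged 264 CPM with METH and 185 CPM with saline in the NAc (log2 fold change 0.53, SE 0.15) and 258 and 191 CPM in the CA (0.43, SE 0.11). Cbs, the first enzyme of transsulfuration, was 76.8 and 58.0 CPM in the NAc (log2 fold change 0.42, SE 0.11) and 83.6 and 52.5 CPM in the CA (0.67, SE 0.082). The latter had the lowest FDR of those named (0.0887 by edgeR). Acsbg1, an acyl-CoA synthetase, was separated in the NAc (242 and 175 CPM) and Id4, a transcriptional inhibitor, in the CA (45.0 and 29.6 CPM). In the DG, Slc7a11, the cystine-glutamate exchanger, averaged 188 CPM with METH and 116 CPM with saline (log2 fold change 0.70, SE 0.16), Nfia was 127 and 99.2 CPM, and Cst3, a secreted protease inhibitor, was lower, at 816 and 964 CPM. In the SVZ only the zinc transporter Slc39a12 was separated among these genes, at 10.9 and 5.15 CPM.

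The partners of the glutamate and glutamine cycle, such as glutaminases and vesicular transporters, were all tested. Of these 17 genes, 0 passed the threshold by edgeR or DESeq2. By edgeR an unadjusted p under 0.05 was reached by 1 higher gene in NAc samples (3.39% of all genes) and 2 higher and 1 lower in DG (12.8%). In CA samples 1 higher and 1 lower gene reached it (7.16%), and in SVZ samples 0 (2.58%). In the CA, Gad2, which makes GABA from glutamate, was 310 CPM with METH and 258 CPM with saline, and Got1, an aspartate aminotransferase, was 189.9 and 219.6 CPM, both without overlap.

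Libraries of 1 group varied together in ways that the treatments did not follow, most of all in the SVZ. Aldoc there was 875, 559, 577 and 484 CPM with saline and 439, 798, 585 and 811 CPM with METH, and Gjb6 was 48.7, 29.4, 18.1 and 17.2 CPM and 20.7, 42.2, 31.9 and 38.9 CPM. Sal 1, METH 2 and METH 4 were the highest for both. Sox9 was 65.1, 88.1, 80.5 and 123 CPM with saline and 130.4, 63.2, 109 and 69.6 CPM with METH, and the same 3 libraries were the lowest. Slc1a3 was also lowest there, with 471, 634, 688 and 604 CPM in saline and 733, 421, 555 and 494 CPM in METH samples. The 6 oligodendrocyte markers summed to 18924, 26057 and 27744 CPM in those 3 libraries and 3917 to 9562 CPM in the other 5. The 4 thalamic neuron markers summed to 1517, 1383 and 954 CPM against 73.1 to 355 CPM, and the striatal markers, as given above, ran the other way. Their part in the members' levels was not tested.

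**Figure D4:**
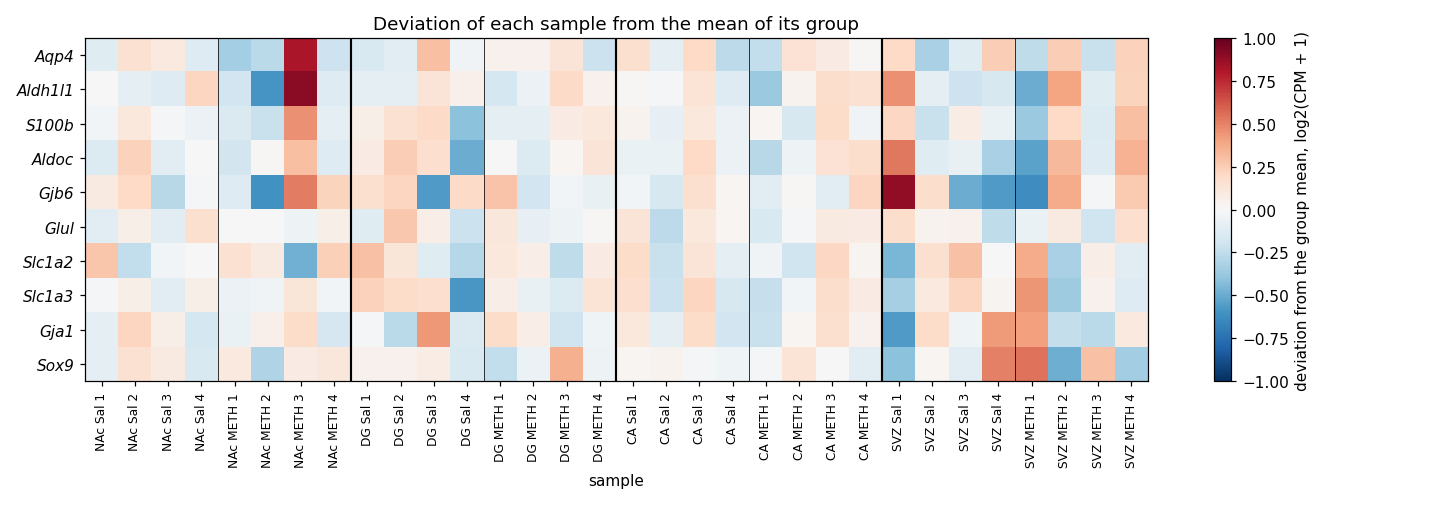
Deviation of each library (x axis) from the mean of its group of 4, in log2(CPM + 1), for the 10 members (y axis), with red above and blue below the mean. In SVZ Sal 1, METH 2 and METH 4 the upper 6 genes are red and 3 or 4 of the lower genes blue, and NAc METH 3 is red for Aqp4, Aldh1l1, S100b, Aldoc and Gjb6.

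The co-variation is described by Pearson's r over these deviations, which share library and depth, and no test was made. Over 32 libraries, 26 of 45 member pairs had a positive r, with a median of 0.13 and a range of -0.63 (Aldh1l1 with Slc1a2) to 0.82 (S100b with Aldoc). Aqp4 and Aldh1l1 had an r of 0.76. Within the 8 libraries of a region the median was 0.53 for CA, 0.34 for NAc, 0.11 for DG and -0.46 for SVZ libraries. In the SVZ, Slc1a2 with Slc1a3 had an r of 0.97, and Aldh1l1 with Slc1a3 an r of -0.98. Compared with the mean of the other 9 members, S100b was most like the set (r = 0.69, rank 41 of 16113 genes), followed by Aqp4 (0.56, rank 233), Aldoc (0.55, rank 243), Aldh1l1 (0.52, rank 389) and Glul (0.42, rank 1350). Slc1a3 (0.27), Gjb6 (0.13) and Gja1 (0.052) were weakly related, while Sox9 (-0.24) and Slc1a2 (-0.36, rank 13842) had a negative r over the 32 libraries. Signs differed within regions. With single members, r ran from -0.40 (Sox9) to 0.88 (S100b) for Slc1a2 in the CA. For Sox9 in the NAc it ran from -0.30 (Slc1a2) to 0.61 (Gjb6). Outside the members, the 10 genes with the highest r to their mean were Tril (0.80), Fam19a5 (0.79), Fam20b (0.79), Garem2 (0.78), Apc2 (0.78), AABR07064304.1 (0.77), Ndrg2 (0.77), Sharpin (0.77), Prss35 (0.76) and Lrp1 (0.76). Only Ndrg2 is on the wider list of homeostatic astrocyte genes.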

How the data were processed

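RNA-seq was performed on rRNA-depleted total RNA of 32 samples, sequenced as read pairs. Per the labels and the submitters' processing notes, the authors trimmed reads with cutadapt 2.7, checked them with FastQC 0.11.4, aligned them with STAR 2.5.2b to rn6 and counted them with featureCounts 1.6.3 without strand. The authors deposited raw read counts per gene, with annotation Ensembl Rnor_6.0 release 95 in the file headers. The study's methods name a UCSC annotation. Ensembl models with few exons, such as that of Slc1a2, may miss reads.

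The deposited counts were fitted with edgeR 4.0.16 under R 4.3.3 (upper-quartile scaling, filterByExpr, quasi-likelihood test, Benjamini-Hochberg over all genes tested), in each region, over all samples with region as a covariate, and between regions in saline samples. A call needed an FDR under 0.01 and a fold above 1.5 (above 2 between regions, no fold for the interaction). The study's own fold threshold for METH was higher, and it used factors of unwanted variation (RUVr), of unstated number. Common coefficients of variation were 0.247, 0.311, 0.199 and 0.373 in the NAc, DG, CA and SVZ. Ratios used counts plus 0.5 and a two-sided exact permutation test, and likeness used log2(CPM + 1). Named beyond the members were the 10 genes most like them and up to 3 genes per list and region with separated groups. Members and lists were chosen with earlier results of these data known. Scripts were tested on simulated data. The alternatives were TMM scaling, DESeq2 1.42.0, no filter, 1 joint fit, a replicate block, run, 2 RUVr factors, another threshold, pseudocounts and leaving out samples. Leaving NAc METH 3 out of the fit over all regions was chosen after seeing the data. So was library number as a random effect (limma voom with duplicateCorrelation) in the fits across regions. Figures used Python 3.11.15 and matplotlib 3.10.9. The series' count matrix (14714 genes) was only checked: its columns matched the 32 libraries. Chromatin data were not used here.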

Additional observations from a re-analysis of the deposited data

Results flagged for a closer look

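In 9 of the 80 groups of 4 libraries examined (10 members, 8 groups), 1 library stood apart from the other 3 by more than Dixon's 95% critical value; chance gives about 1 in 20. NAc METH 3 was high for Aqp4, at 1220 CPM against 546 to 599.5 CPM in the other 3, and for S100b, at 1090.2 CPM against 681 to 742 CPM. NAc METH 2 was low for Sox9, at 58.2 CPM against 76.0 to 77.9 CPM. DG Sal 4 was low for Slc1a3, at 436 CPM against 734 to 766 CPM, and for Sox9, at 70.5 CPM against 80.5 to 82.4 CPM. It held 2074 CPM of 5 choroid plexus markers against 1.64 to 182 CPM in the other DG saline libraries. Its 6 oligodendrocyte markers summed to 12281 CPM against 3266 to 7748 CPM, and the part of this content was not tested. DG Sal 3, the library with 1359 CPM of striatal neuron markers, was low for Gjb6, at 20.8 CPM against 34.9 to 36.5 CPM. In the DG METH group, replicate 3 was low for Slc1a2, at 739 CPM against 922 to 947 CPM; the same library held 6188 CPM of 5 choroid plexus markers against 8.05 to 29.6 CPM in the others. CA Sal 3 was high for Aldoc, at 617 CPM against 513 to 516 CPM. SVZ Sal 1 was high for Aldh1l1, at 31.3 CPM against 19.4 to 21.1 CPM.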

How the results depend on the processing

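The count of members past the threshold was 0 in all 12 comparisons under each alternative run, 217 values in all. In the main edgeR fits 0.0% of all genes passed, apart from 0.0193% for DG against SVZ and 0.812% for CA against SVZ. The count therefore says little about the members. The run could not be fitted in the SVZ, which has only 1. Replicate numbers did not pair the samples: same-numbered samples had r from -0.776 to 0.423, 7 of 16 pairs were over 0.1 and 4 samples correlated best with their own number. With the replicate block 0 members were called and 2 in place of 3 had an unadjusted p under 0.05 in the CA and over all regions. In the main edgeR fits the threshold of FDR under 0.05 with no fold also gave 0, while some alternatives held members below 0.05. The lowest FDR of a METH alternative was 0.0101 (Slc1a3, NAc, DESeq2); the range of that fold change was 0.34 to 0.40. Between regions the lowest was 0.00137 (Slc1a3, CA against SVZ, all 32 samples), with a fold under 2. Library number as a random effect in the fits across regions called 0 members.

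Fold changes of METH kept their direction in 648 of 720 values, and those between regions in 1310 of 1380. On the log2 scale, run as a covariate turned Gjb6 (-0.015) in the CA. In the NAc, where it set METH 1 and 2 against Sal 3 and 4, it turned Aldh1l1 (-0.034) and Gjb6 (-0.22). In the DG, where it set METH 1 and 2 against Sal 3 alone, it turned Gja1 (-0.12), Gjb6 (0.67) and S100b (-0.16). DG replicates 3 and 4 alone turned Gja1 (-0.096), Gjb6 (0.10), Glul (0.016), Sox9 (0.17) and Aldoc (0.19). DG Gjb6 was also turned by the replicate block (0.017) and 2 RUVr factors (0.029). SVZ Gja1 was -0.00724 by DESeq2, -0.00865 without a filter, -0.000724 in 1 fit of all samples and -0.022 with libraries of 1 number summed. SVZ S100b was -0.00932 by DESeq2, -0.00787 without a filter, -0.00866 with the replicate block, -0.016 with RUVr and -0.015 when summed. Over all regions, Slc1a2 was 0.13 without the SVZ, 0.13 also without DG replicates 1 and 2, and 0.023 without NAc METH 3, and Gja1 was -0.033 without the DG and -0.057 without the SVZ and DG replicates 1 and 2. The likeness r of Gja1 was -0.0247 with TMM and -0.053 in saline samples, and that of Gjb6 -0.21 in saline samples. Leaving out each library gave, in the NAc, Slc1a2 -0.00216 to 0.22 and Gjb6 -0.14 to 0.23; in the DG, Gjb6 -0.16 to 0.060, Glul -0.10 to 0.053, Sox9 -0.15 to 0.065 and Aldoc -0.17 to 0.047. In the CA it gave Slc1a2 -0.019 to 0.13, Gja1 -0.023 to 0.11, Gjb6 -0.00484 to 0.13 and S100b -0.014 to 0.11. In the SVZ it gave Aldh1l1 -0.094 to 0.24, Gja1 -0.16 to 0.16, Glul -0.090 to 0.046, S100b -0.10 to 0.12, Sox9 -0.14 to 0.26 and Aldoc -0.033 to 0.29. The ratio differences ran from -0.36 to 0.00572 (Gja1 to Gjb6, NAc), -0.13 to 0.025 (CA) and -0.80 to 0.033 (SVZ), and from -0.0927 to 0.10 (Slc1a2 to Slc1a3, DG). For these results the cause was not tested. Members' SEs were 0.071 to 0.37 in a region, and the parts of read depth and of the spread between libraries were not separated.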
